A study of Homo sapiens with 6 samples.

Results

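The genes that license replication origins, drive the replication fork and supply it with nucleotides were compared between WT and NUAK2-CR cells of U251, an established human glioblastoma line. The set holds 45 genes, listed by symbol for their role, with earlier results of these data known, out of 28395 genes in the count table, and all 45 symbols were found there by NCBI gene identifier. Polyadenylated RNA was sequenced from 3 libraries of U251 WT cells and 3 of U251 NUAK2-CR cells, the same line with NUAK2 targeted by CRISPR-Cas9. No other treatment, time or allele is given for either group. The study made its CRISPR lines by lentiviral delivery, sorting of double-positive cells into plates and expansion of clones, and the labels do not say whether the 3 NUAK2-CR libraries are 1 clone or several, so what targeting did and what set a clone apart from its parent population cannot be told apart. Nothing in the labels says that the libraries of a group came from separate cultures, so p-values measure the spread between these libraries, which may be technical.

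Before a cell copies its DNA, the origin recognition complex, CDC6 and CDT1 load rings of the MCM helicase onto origins, a step called licensing that geminin blocks by binding CDT1. On entry into S phase, CDC45 and the GINS complex turn the loaded ring into an active helicase, the clamp loader RFC places the ring-shaped clamp PCNA on DNA, and the polymerases copy both strands while ribonucleotide reductase, thymidylate synthase and thymidine kinase supply deoxynucleotides. Most of these genes are transcribed from late G1 under E2F factors, which cyclin E with its kinase CDK2 releases from the retinoblastoma protein, and several serve as markers of proliferating cells in tumors such as glioblastoma.

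Because many of these genes carry E2F elements in their promoters, the bases just upstream of the transcription start are shown for 5 of the genes that the results turn on. They are the helicase subunit MCM6, the loading factor CDT1, the clamp PCNA and the activator E2F1, which were all higher in NUAK2-CR, and the origin recognition subunit ORC1, which was lower. Sequences are from RefSeq on GRCh38.p14, read 5′ to 3′ on the coding strand up to the base before the start, and capitals mark matches to TTTCCCGC, TTTGGCGC, TTTCGCGC or TTTGCCGC on either strand. The windows lie at chr2:135876444-135876603 on the minus strand for MCM6, chr16:88803629-88803788 on the plus strand for CDT1, chr20:5119959-5120118 on the minus strand for PCNA, chr20:33686386-33686545 on the minus strand for E2F1 and chr1:52404424-52404583 on the minus strand for ORC1.
MCM6: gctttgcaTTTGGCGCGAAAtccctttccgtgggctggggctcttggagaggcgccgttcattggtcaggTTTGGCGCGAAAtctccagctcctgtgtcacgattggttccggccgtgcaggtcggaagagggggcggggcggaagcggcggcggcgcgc
CDT1: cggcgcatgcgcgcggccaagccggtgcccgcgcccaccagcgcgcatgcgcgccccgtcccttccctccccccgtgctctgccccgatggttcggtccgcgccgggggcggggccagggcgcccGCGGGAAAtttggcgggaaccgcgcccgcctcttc
PCNA: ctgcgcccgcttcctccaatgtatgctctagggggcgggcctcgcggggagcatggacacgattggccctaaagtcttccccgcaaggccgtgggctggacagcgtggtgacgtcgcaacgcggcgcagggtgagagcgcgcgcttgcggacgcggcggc
E2F1: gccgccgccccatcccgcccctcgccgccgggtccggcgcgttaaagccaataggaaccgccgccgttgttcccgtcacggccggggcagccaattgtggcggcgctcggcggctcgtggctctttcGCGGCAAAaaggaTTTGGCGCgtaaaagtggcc
ORC1: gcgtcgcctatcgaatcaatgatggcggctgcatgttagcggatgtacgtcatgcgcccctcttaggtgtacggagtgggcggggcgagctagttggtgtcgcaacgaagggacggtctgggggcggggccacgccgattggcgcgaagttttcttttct
MCM6 holds 4 matches as 2 overlapping pairs on opposite strands, E2F1 holds 2 and CDT1 holds 1. PCNA and ORC1 have no match in the stretch shown; a second annotated PCNA start further upstream has 1 match. Of the 39 set members with a promoter window, from 250 bases before to 50 after the start, 21 (53.8%) held at least 1 of the 4 words in a window, against 3.99% of the 27305 genes with such a window and 6.47% of the tested genes. The words stood in 13 of 22 genes that were higher in NUAK2-CR, in 1 of 3 that were lower and in 7 of 14 that did not pass the test. A CCAAT box, CCAAT on either strand, was found in 23 of the 39 (59.0%, against 43.2% of tested genes), and a CHR element, TTTGAA or TTCGAA, in 2 (5.13%, against 15.8%). A match is a description of the letters and not a measured site.

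Counts on genes summed to between 35310946 and 55574081 in WT and between 29648445 and 33776712 in NUAK2-CR, and the lowest count of any member in any library was 217, so every member was above the low-count filter and all 45 were tested. Values are given as normalized counts, brought to a common library size with TMM factors. Pairwise correlations of log2 CPM values were at least 0.990 within WT and 0.989 within NUAK2-CR and at most 0.944 between the groups. WT replicate 1, the deepest library, had the highest value of the 3 WT libraries for 38 of the 45 members, so counts are also given without it. All 8 glioblastoma and astroglial markers were detected in both groups, 2 of them higher and 6 lower in NUAK2-CR, with summed levels of 328643 to 363370 normalized counts in WT and 164784 to 167888 in NUAK2-CR. GFAP, the astrocyte filament protein, was among those that fell. Of the 5 leukocyte markers CD3E and AIF1 had 0 counts in every library, and summed levels were 658 to 741 in WT, while no NUAK2-CR library reached 658 and the lowest read 204, nearly all from CD68. The 4 endothelial markers summed to 227 to 308 in WT and 186 to 201 in NUAK2-CR; of these KDR fell, PECAM1 and VWF rose from at most 25.2 normalized counts in any WT library, and CDH5 did not pass the test. The 5 epithelial markers, mostly keratins 8 and 18, summed to 5532 to 6272 in WT and 6622 to 7208 in NUAK2-CR, with KRT18 higher, KRT8 and KRT19 lower and EPCAM and CDH1 below the filter. The part of any of these shifts in the results below was not tested. NUAK2 itself read 1926, 1457 and 1580 in the WT libraries and 799, 961 and 849 in the NUAK2-CR libraries, lower in all 3 targeted libraries.

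Replication genes were more often higher than lower in NUAK2-CR. At an adjusted p-value under 0.05 in edgeR's quasi-likelihood test, 31 of the 45 members were called, against 54.5% of all 14873 genes tested: 26 of the 45 members (57.8%) were higher, against 26.3% of all genes, and 5 (11.1%) were lower, against 28.2%. The other 14 did not pass the test. Among tested genes with a mean at least as high as the lowest member, 29.5% were higher and 32% lower. The changes were modest: the members had a median log2 fold change of 0.31, against -0.01 for all genes tested, the lower and upper quartiles were 0.03 and 0.51, and the full range ran from -0.62 for RPA2 to 1.14 for CCNE2. A single member, CCNE2, exceeded 1 on the log2 scale, which 6.91% of all genes did in the same direction; none was below -1, against 6.96% of all genes, and none exceeded 2, which 4.72% did in either direction. The values of the 2 groups did not overlap for 34 members (75.6%), against 61.4% of all tested genes; in 26 of them every NUAK2-CR library was above every WT library and in 8 below. Summed over the members, the share of all counts was 0.367%, 0.302% and 0.319% in WT replicates 1 to 3 and 0.404%, 0.422% and 0.413% in NUAK2-CR, higher in all 3 NUAK2-CR libraries. In bulk RNA, more cells in S phase and more of these transcripts per cell cannot be told apart. The paper reports less Ki67 staining, EdU uptake, growth in the MTT assay and colony formation in U251 clones with NUAK2 targeted. For EdU uptake and growth, not every clone differed from WT there. In xenografts of targeted U251 cells the paper also reports fewer cells stained for Ki67 and PCNA. It reports the same in mouse gliomas with Nuak2 targeted. That staining measures protein in tumors, whereas the values here are RNA of the cell line. The labels do not say which clones were sequenced, and the share of cells in S phase in these libraries was not tested. Without WT replicate 1, 32 members were higher and 5 lower, and without WT replicate 2, 22 were higher and 7 lower.

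**Figure D1:**
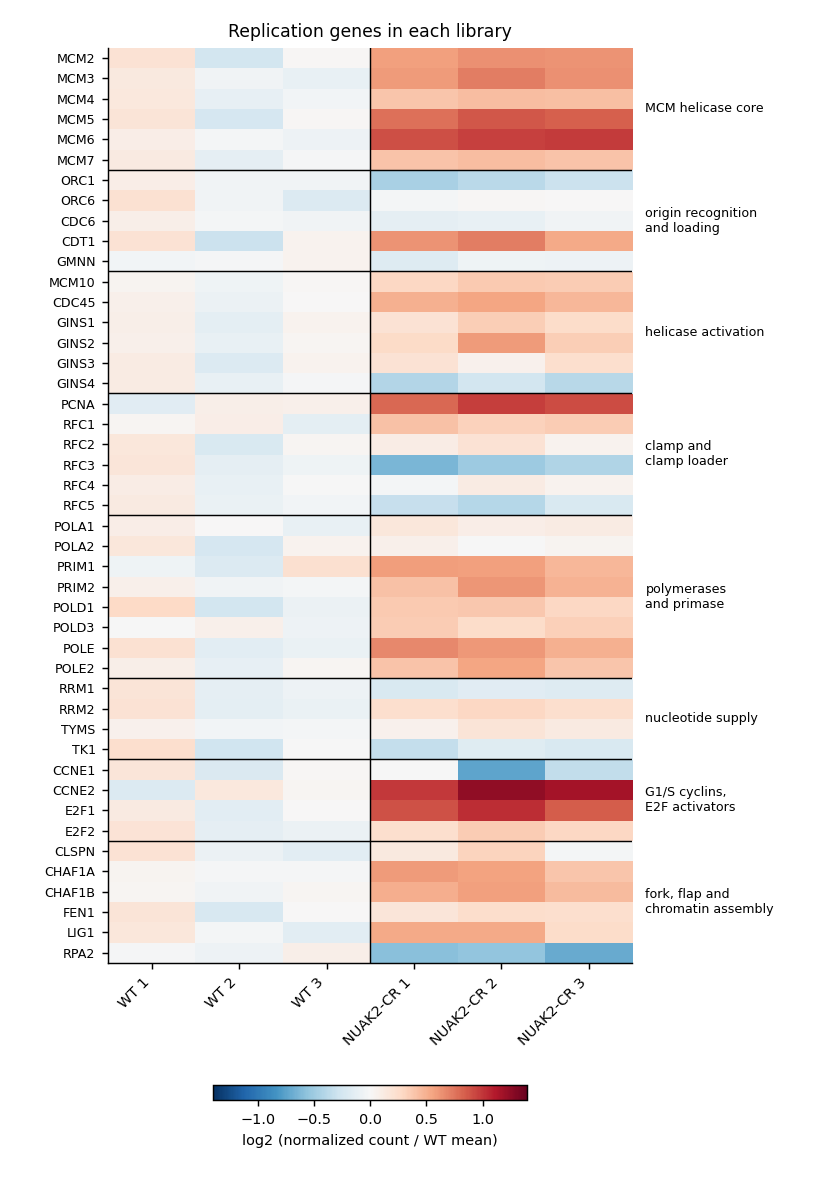
Each row is 1 of the 45 replication genes, grouped by role, and each column 1 of the 6 libraries; color gives log2 of the normalized count over the WT mean of that gene, red above and blue below. All 6 MCM subunits are red in the 3 NUAK2-CR columns, while ORC1, GINS4, RFC3, RFC5 and RPA2 are blue there, and WT replicate 1 is the reddest WT column in 38 rows.

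The MCM helicase was the one role in which every member rose. MCM2 to MCM7 form the hexameric ring that unwinds DNA at the fork. All 6 were higher in NUAK2-CR with no overlap between groups, at log2 fold changes from 0.41 to 0.95 and a median of 0.63. Of all genes tested, 26.3% were higher and 61.4% did not overlap in either direction. MCM6 (gene 4175, chromosome 2, 135839626 to 135876443) read 2858, 2632 and 2554 normalized counts in WT replicates 1 to 3 and 5021, 5204 and 5285 in NUAK2-CR. Every NUAK2-CR library thus stood well above the WT range, with a log2 fold change of 0.95 (SE, the standard error, 0.07; adjusted p = 2.39e-07, edgeR quasi-likelihood test). MCM2 (gene 4171, chromosome 3, 127598411 to 127622436), a common marker of cycling cells, read 7455, 5430 and 6528 in WT and 9638, 10081 and 10020 in NUAK2-CR. The WT libraries of MCM2 were spread more widely than the NUAK2-CR libraries but did not reach them (log2 fold change 0.61, SE 0.10, adjusted p = 0.000187). MCM7 (gene 4176, chromosome 7, 100092728 to 100101397), whose exons overlap AP4M1 on the opposite strand, had the smallest change of the 6. It read 9599, 8022 and 8703 in WT and 11575, 11870 and 11600 in NUAK2-CR, for a log2 fold change of 0.41 (SE 0.07, adjusted p = 0.000496). MCM5 had 0.83, MCM3 0.65 and MCM4 0.42.

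Although the subunits act as 1 ring, their levels per kilobase of the MANE Select transcript were unequal, and less so in NUAK2-CR. Per kilobase of the MANE Select transcript, the WT mean level ran from 714 normalized counts for MCM6 to 3557 for MCM7, and the NUAK2-CR mean from 1378 to 4735 for the same genes. By this length MCM7 was the highest and MCM6 the lowest of the 6 in every library. The level of the highest over the lowest was 5.11, 4.64 and 5.18 in WT replicates 1 to 3 and 3.51, 3.47 and 3.34 in NUAK2-CR. In GINS1 to GINS4 the same ratio was 1.52 to 1.61 in WT and 1.16 to 1.30 in NUAK2-CR. In RFC1 to RFC5 it went the other way, from 1.76 to 2.43 in WT to 2.43 to 2.92 in NUAK2-CR. These ratios are within a library and so do not depend on its scaling. They were computed after the subunits' values had been seen and carry no test. The ratios and the order of subunits do depend on the length used. All annotated exons of MCM5, MCM6 and MCM7 span 7268, 4135 and 4960 bases, against 3458, 3753 and 2467 in MANE Select. Levels over all annotated exons were not computed.

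The factors that put the helicase on origins moved in different directions, with 20% of them higher and 20% lower, against 26.3% and 28.2% of all genes tested. Of the 5 genes of origin recognition and loading, CDT1 rose, ORC1 fell and ORC6, CDC6 and GMNN did not pass the test, with a median log2 fold change of -0.09. CDT1 (gene 81620, chromosome 16, 88803789 to 88809258) brings the MCM ring to the origin. It read 1490, 1050 and 1335 in WT and 2002, 2115 and 1860 in NUAK2-CR, for a log2 fold change of 0.62 (SE 0.11, adjusted p = 0.000502, edgeR). GMNN (gene 51053, chromosome 6, 24774937 to 24786099) encodes geminin, the inhibitor of CDT1, and read 1443, 1460 and 1530 in WT and 1302, 1416 and 1409 in NUAK2-CR. All 3 NUAK2-CR libraries lay below the 3 of WT, but the difference was small (log2 fold change -0.10, SE 0.07, adjusted p = 0.266). ORC1 (gene 4998, chromosome 1, 52372829 to 52409503), the subunit of the origin recognition complex that cycles, read 1474, 1338 and 1344 in WT and 1012, 1070 and 1129 in NUAK2-CR, lower in every targeted library (log2 fold change -0.37, SE 0.08, adjusted p = 0.00191). CDC6, which loads the ring together with the complex, had -0.09 (adjusted p = 0.263), and ORC6, its smallest subunit, had -0.0022 (adjusted p = 0.988).

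Of the 6 genes that activate the loaded helicase, MCM10, CDC45, GINS1 and GINS2 were higher in NUAK2-CR, GINS3 did not pass the test and GINS4 was lower. Their median was 0.30. Thus 66.7% were higher and 16.7% lower, against 26.3% and 28.2% of all genes tested. CDC45 (gene 8318, chromosome 22, 19479466 to 19520612), which joins the ring and GINS to form the active helicase, read 1427, 1284 and 1359 in WT and 1915, 1986 and 1874 in NUAK2-CR. That is a log2 fold change of 0.50 (SE 0.07, adjusted p = 9.2e-05, edgeR) with no overlap. GINS4 (gene 84296, chromosome 8, 41529261 to 41545030) read 2322, 2000 and 2117 in WT and 1615, 1797 and 1642 in NUAK2-CR, for a log2 fold change of -0.35 (SE 0.08, adjusted p = 0.00252). The GINS complex is a tetramer, and its other subunits had log2 fold changes of 0.27 (GINS1), 0.41 (GINS2) and 0.17 (GINS3, adjusted p = 0.166). Per kilobase of the MANE Select transcript, GINS4 had the highest level of the 4 in every WT library, and in NUAK2-CR replicates 1 and 3 the lowest. This order depends on the length used. All annotated exons of GINS1 to GINS4 span 8017, 3219, 5108 and 5447 bases, against 3311, 2628, 2200 and 3770 in MANE Select. The call for GINS1 was lost without WT replicate 2 and without NUAK2-CR replicate 2, within a range of 0.20 to 0.32 over all refits.

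The clamp PCNA rose, while the subunits of its loader moved in different directions. In this role 33.3% of the genes were higher and 33.3% lower in NUAK2-CR, against 26.3% and 28.2% of all genes tested. PCNA (gene 5111, chromosome 20, 5114953 to 5126622), the clamp that holds the polymerases on DNA and a histological marker of proliferation, read 3435, 4055 and 4013 in WT and 6684, 7511 and 7248 in NUAK2-CR. The lowest NUAK2-CR library was far above its highest WT library. The log2 fold change was 0.90 (SE 0.08, adjusted p = 1.52e-06, edgeR), a 1.87-fold higher level. PCNA protein staining in the paper's tumors went the other way, with fewer positive cells when NUAK2 was targeted. RefSeq names 4 PCNA pseudogenes, so reads that match several copies may be missing from its count. The same limit holds for RPA2 and RRM2, with 3 pseudogenes each, TYMS, with 2, and ORC1, RFC3, RFC5 and FEN1, with 1 each. Among the 5 subunits of the loader, RFC1, the large subunit, rose (0.36), RFC3 and RFC5 fell, and RFC2 (0.12) and RFC4 (0.05) did not pass the test. RFC3 (gene 5983, chromosome 13, 33818149 to 33977377) read 2019, 1636 and 1711 in WT and 1152, 1258 and 1333 in NUAK2-CR, lower in all 3 targeted libraries (log2 fold change -0.52, SE 0.09, adjusted p = 0.000506). RFC5 had -0.31 (adjusted p = 0.00581).

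Of the 8 polymerase and primase genes, 6 rose, none fell and POLA1 and POLA2 did not pass the test. The median was 0.39. Thus 75% were higher and 0% lower, against 26.3% and 28.2% of all genes tested. POLE (gene 5426, chromosome 12, 132623762 to 132687342), the catalytic subunit of the leading-strand polymerase epsilon, read 3768, 2949 and 3047 in WT and 5185, 4954 and 4611 in NUAK2-CR. The groups did not overlap, and the log2 fold change was 0.59 (SE 0.09, adjusted p = 0.00017, edgeR). Its partner POLE2 had 0.45. The primase subunits PRIM1 and PRIM2, which lay down the RNA primers, had 0.55 and 0.50, while the DNA polymerase alpha subunits that extend those primers had 0.12 (POLA1, adjusted p = 0.174) and 0.03 (POLA2). POLA2 (gene 23649, chromosome 11, 65261962 to 65305985) read 1680, 1270 and 1551 in WT and 1572, 1499 and 1540 in NUAK2-CR, inside the WT range, with an adjusted p of 0.796. PRIM2 has a related copy, PRIM2BP, on the same chromosome, so its counts are less certain. The lagging-strand polymerase delta genes POLD1 and POLD3 had 0.34 and 0.31. The call for POLD1 was lost without WT replicate 2, WT replicate 3 or NUAK2-CR replicate 2, within a range of 0.23 to 0.51 over all refits.

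**Figure D2:**
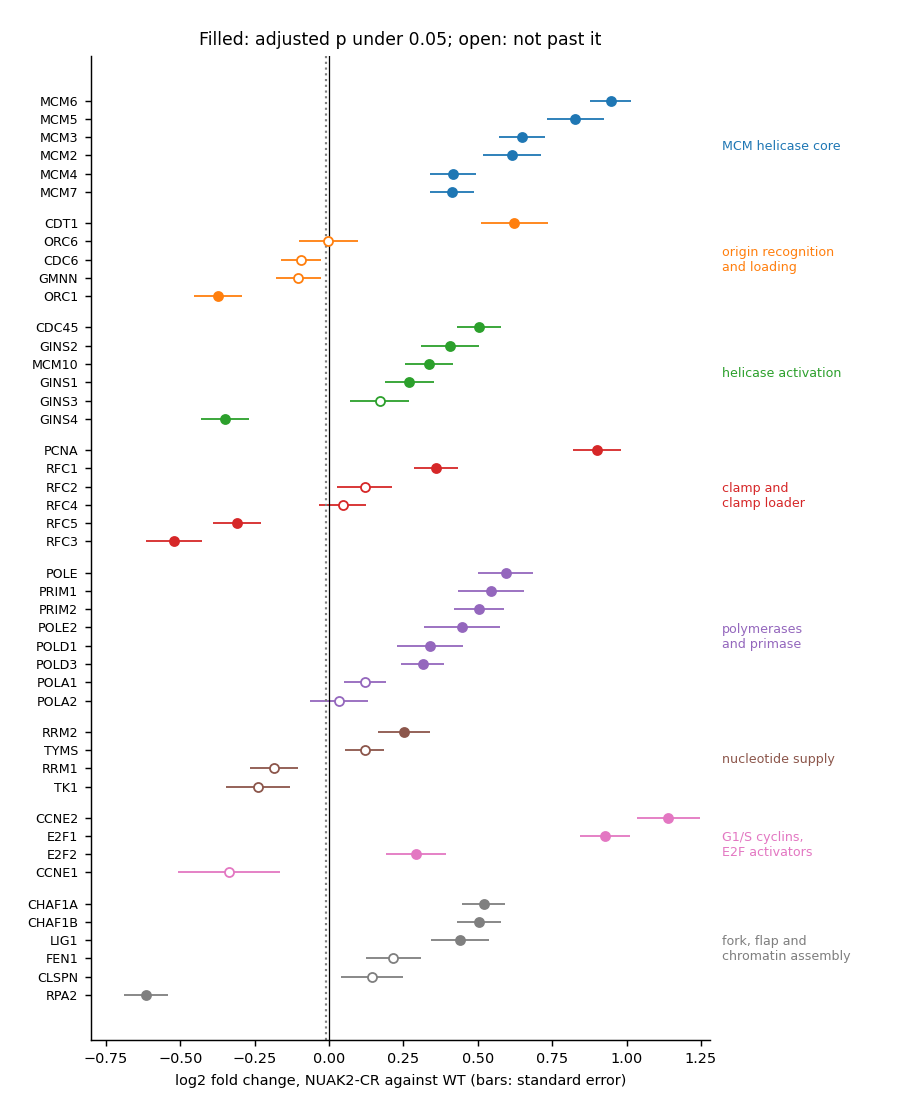
Log2 fold change of NUAK2-CR against WT for the 45 genes, grouped by role and ordered within each group; bars are standard errors, filled points have an adjusted p under 0.05 in edgeR's test, open points do not, the solid line is 0 and the dotted line the median of all genes tested (-0.01). The MCM core and the polymerases lie to the right of 0 as whole groups, whereas the loading, clamp loader and nucleotide groups straddle it.

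Among the roles of the set, nucleotide supply showed the least movement, with log2 fold changes from -0.24 to 0.25. Of its 4 genes only RRM2 passed the test, and the group's median was -0.03. Thus 25% were higher, near the 26.3% of all genes tested, and 0% lower, against 28.2%. This does not extend to 10 other nucleotide supply genes outside the set, of which 20% were higher and 40% lower. RRM2 (gene 6241, chromosome 2, 10122568 to 10211010), the small and cell-cycle-regulated subunit of ribonucleotide reductase, read 9873, 7763 and 8029 in WT and 10052, 10430 and 10098 in NUAK2-CR. WT replicate 1 came close to the NUAK2-CR libraries, and the log2 fold change was 0.25 (SE 0.09, adjusted p = 0.0279, edgeR); the call was lost without WT replicate 2 or 3, or NUAK2-CR replicate 2 or 3, within a range of 0.18 to 0.38 over all refits. RRM1 (gene 6240, chromosome 11, 4094685 to 4138932), the large subunit, read 9586, 7776 and 8089 in WT and 7306, 7623 and 7475 in NUAK2-CR, for a log2 fold change of -0.18 (SE 0.08, adjusted p = 0.0738). RRM1 ranged from -0.08 without WT replicate 1 to -0.25 without WT replicate 2, where it passed the test, as it did with the filter of 1 count. TK1 (gene 7083, chromosome 17, 78174079 to 78187204), the thymidine kinase of the salvage pathway, read 5058, 3565 and 4305 in WT and 3420, 3835 and 3713 in NUAK2-CR, with overlapping groups (log2 fold change -0.24, SE 0.11, adjusted p = 0.0793). TK1 moved likewise, from -0.098 without WT replicate 1 to -0.36 without WT replicate 2, and passed the test in the latter and with the filter of 1 count. TYMS, which makes thymidylate and whose exons overlap ENOSF1 on the opposite strand, had 0.12 (adjusted p = 0.153).

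Of the 4 regulators of S phase entry, CCNE2, E2F1 and E2F2 rose and CCNE1 did not pass the test. Thus 75% were higher and 0% lower, against 26.3% and 28.2% of all genes tested. CCNE2 had the largest increase of the set. This E-type cyclin, an activator of CDK2 (gene 9134, chromosome 8, 94880224 to 94896693), read 498, 629 and 580 in WT and 1128, 1345 and 1280 in NUAK2-CR. The CCNE2 level was 2.20-fold higher, a log2 fold change of 1.14 (SE 0.11, adjusted p = 2.09e-06, edgeR); its exons overlap INTS8 on the opposite strand. CCNE1 (gene 898, chromosome 19, 29811991 to 29824312), the other E-type cyclin, read 491, 379 and 442 in WT and 436, 262 and 345 in NUAK2-CR. The CCNE1 groups overlapped, at a log2 fold change of -0.34 (SE 0.17, adjusted p = 0.118), and without NUAK2-CR replicate 1 it was -0.51 with an adjusted p of 0.025. E2F1 (gene 1869, chromosome 20, 33675477 to 33686385), the best known activator of S phase genes, read 2409, 2007 and 2232 in WT and 4122, 4550 and 3977 in NUAK2-CR. It was 1.90-fold higher in NUAK2-CR (log2 fold change 0.93, SE 0.08, adjusted p = 1.5e-06). E2F2 (gene 1870, chromosome 1, 23505212 to 23531233), a second activator, read 877, 700 and 721 in WT and 905, 977 and 939 in NUAK2-CR. The E2F2 change was smaller (0.29, SE 0.10, adjusted p = 0.0262), and the call was lost without WT replicate 2 or 3, or NUAK2-CR replicate 2 or 3, within a range of 0.23 to 0.41 over all refits.

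In the last group, CHAF1A, CHAF1B and LIG1 rose, RPA2 fell, and CLSPN and FEN1 did not pass the test. Thus 50% were higher and 16.7% lower, against 26.3% and 28.2% of all genes tested. CHAF1A (gene 10036, chromosome 19, 4402640 to 4450830), a subunit of the factor that deposits histones behind the fork, read 2349, 2267 and 2269 in WT and 3479, 3399 and 2995 in NUAK2-CR. The difference far exceeded the narrow WT spread (log2 fold change 0.52, SE 0.07, adjusted p = 7.36e-05, edgeR), and its partner CHAF1B had 0.51. RPA2 (gene 6118, chromosome 1, 27891524 to 27914797), the middle subunit of the protein that coats single-stranded DNA, had the largest decrease of the set. It read 3299, 3162 and 3538 in WT and 2216, 2266 and 2045 in NUAK2-CR, for a log2 fold change of -0.62 (SE 0.07, adjusted p = 1.62e-05), or 65.3% of the WT mean. LIG1, the ligase that seals Okazaki fragments, had 0.44, FEN1, the nuclease that trims their flaps, 0.22 (adjusted p = 0.0636, but past the test in 5 of 13 refits, within 0.12 to 0.33), and CLSPN, a fork checkpoint mediator, 0.14 (adjusted p = 0.269).

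Within each library, 4 ratios set a gene against its partner, which removes any effect of library scaling. CDT1 to GMNN, the loader against its inhibitor, had log2 ratios of 0.05, -0.48 and -0.20 in WT replicates 1 to 3 and 0.62, 0.58 and 0.40 in NUAK2-CR, a difference of means of 0.74. RRM2 to RRM1 had 0.04, -0.0025 and -0.01 in WT and 0.46, 0.45 and 0.43 in NUAK2-CR, a difference of 0.44. Although neither subunit alone moved far, their ratio was nearly constant within each group, with an SD of 0.03 in WT and 0.01 in NUAK2-CR. CCNE2 to CCNE1 had 0.02, 0.73 and 0.39 in WT and 1.37, 2.36 and 1.89 in NUAK2-CR, a difference of 1.49. E2F2 to E2F1 went down, from -1.46, -1.52 and -1.63 to -2.19, -2.22 and -2.08, a difference of -0.63. None of the 4 ratios overlapped between groups. The share of other gene pairs without overlap was not computed, and among all single genes tested 61.4% did not overlap. Each had a two-sided exact permutation p of 0.1, or 0.1 when adjusted over the 4, which is the smallest that 3 libraries against 3 allow, so the design cannot take this test under 0.05.

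**Figure D3:**
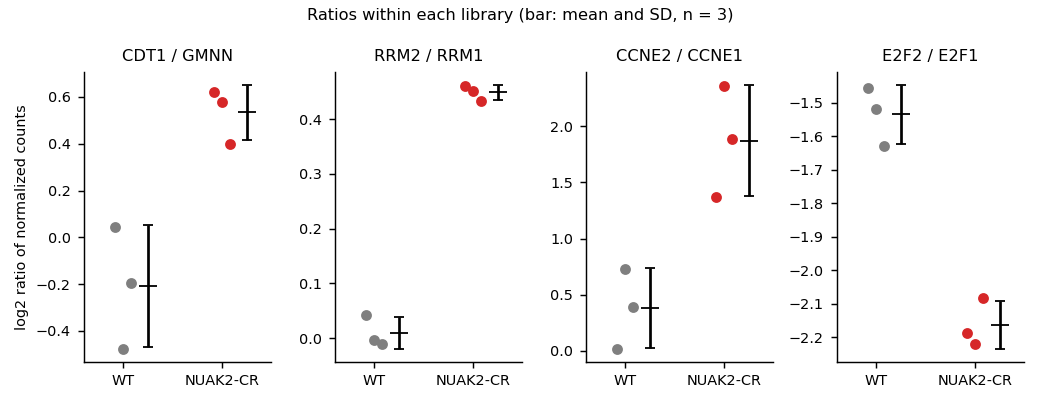
Log2 ratio of normalized counts, with a pseudocount of 0.5, for 4 gene pairs in the 3 WT libraries (gray) and the 3 NUAK2-CR libraries (red); black bars are mean and SD, n = 3, and each panel has its own vertical scale. The groups are separate in every panel, with a difference of 0.74 for CDT1 over GMNN, 0.44 for RRM2 over RRM1, 1.49 for CCNE2 over CCNE1 and -0.63 for E2F2 over E2F1.

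Each member was also set beside the 20 tested genes that start nearest to it, other members left out. The median of that neighborhood was positive for 26 members and negative for 19, with a median of 0.03. Subtracting it left the median of the members at 0.33 and 36 of 45 values above 0. Of the 5 genes that fell, RFC3 and ORC1 matched their neighborhoods, at -0.48 and -0.31, which left -0.04 and -0.06, each within its standard error. GINS4, RFC5 and RPA2 remained at -0.50, -0.30 and -0.30. The neighbors of PCNA had a median of 0.29, which left it at 0.61, and those of RFC1 0.39, which left -0.03. CDC6 and E2F2 stood above low neighborhoods, of -0.61 and -0.51, by 0.52 and 0.81. NUAK2 lies in such a region too, with neighbors at -0.82 beside its own log2 fold change of -0.93. Whether these medians differ from those of 20 genes drawn from anywhere, and what part they have in the members' changes, was not tested.

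**Figure D4:**
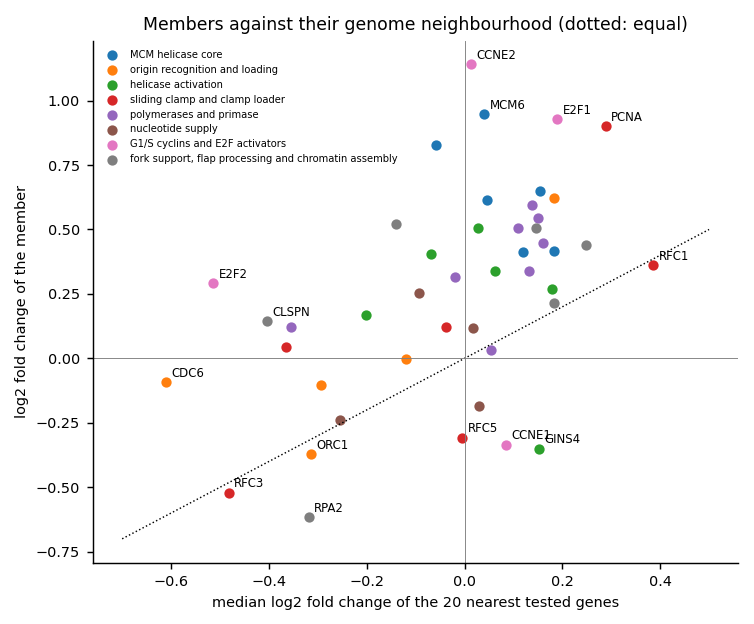
Log2 fold change of each of the 45 members (vertical axis) against the median over the 20 tested genes that start nearest to it (horizontal axis), colored by role; the dotted line marks equal values. RFC1, RFC3 and ORC1 lie on or near the dotted line, whereas CCNE2, MCM6 and E2F1 lie above it, by 1.13, 0.91 and 0.74.

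Other genes of DNA replication and S phase entry were read in the same way. In a list of 68 such genes outside the set, all tested, 23 were higher (33.8%, against 26.3% of all genes tested) and 20 lower (29.4%, against 28.2%) in the targeted cells, shares near those of all genes, with a median log2 fold change of 0.08. Without WT replicate 1 the numbers were 31 higher and 19 lower. Those past 1 on the log2 scale were TK2, the mitochondrial thymidine kinase, at 1.38 (SE 0.08, adjusted p = 4.64e-08, edgeR), ATAD2, an E2F-linked chromatin ATPase, at 1.05, and DBF4B, an activator of the CDC7 kinase, at -1.30 (SE 0.09, adjusted p = 1e-07). TK2 read 581, 545 and 531 in WT and 1376, 1498 and 1459 in NUAK2-CR, DBF4B read 2931, 2438 and 2520 in WT and 1120, 1056 and 1031 in NUAK2-CR, and ATAD2 read 4122, 4283 and 4022 in WT and 8779, 8475 and 8503 in NUAK2-CR. The neighbors of TK2 had a median of 0.60, those of ATAD2 0.56 and those of DBF4B -0.20. Among genes picked after their values were seen, the S phase cyclin CCNA2 fell, at -0.65, in contrast to CCNE2, and the large single-strand binding subunit RPA1 fell with RPA2, at -0.47, while RPA3 had 0.08 (adjusted p = 0.505). RB1, which restrains E2F, fell at -0.63 within a neighborhood at -0.42, and TFDP1, a dimer partner of E2F, at -0.43 within one at -0.38, whereas the other partner, TFDP2, rose at 0.62 beside neighbors at 0.12. The E2F family members E2F7 and E2F8, both repressors, rose at 0.62 and 0.92. DUT, which clears dUTP, rose at 0.42.

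**Figure D5:**
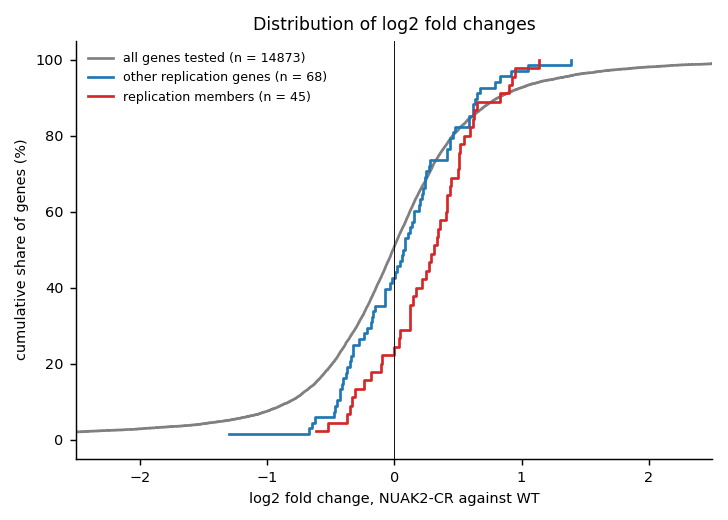
Cumulative share of genes (vertical axis, percent) by log2 fold change of NUAK2-CR against WT (horizontal axis, shown from -2.5 to 2.5) for all 14873 genes tested (gray), the 68 other replication genes (blue) and the 45 members (red). The red curve lies to the right, with a median of 0.31 against 0.08 for the blue curve and -0.01 for the gray one.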

How the data were processed

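Polyadenylated RNA of 3 WT and 3 NUAK2-CR U251 libraries was sequenced with a stranded kit. The deposited values are whole-number counts per gene, not normalized, which the authors made with featureCounts after trimming (Trimmomatic) and alignment to hg38 (HISAT2), all at default settings. Tool versions and the gene annotation are not given in the sources used here. The strand setting of the counting is given only as the default, so genes with overlapping exons on opposite strands are uncertain. Besides those named above, these include the called members MCM2, CDC45, GINS1, GINS2, GINS4, RFC5, PRIM1, CHAF1A and LIG1. PRIM1, POLD1, POLD3 and CHAF1B overlap exons of genes on the same strand. Groups and replicate numbers came from the sample titles. Of 28395 gene identifiers, 27745 matched a RefSeq symbol and 650 did not. Counts were filtered with filterByExpr, scaled with TMM factors and fitted by condition alone in edgeR 4.0.16 under R 4.3.3 (glmQLFit, glmQLFTest, prior count 0.125); p-values were Benjamini-Hochberg adjusted over the 14873 genes tested, and a gene was called at an adjusted p under 0.05. The standard error is the absolute log2 fold change over the square root of the F statistic. In simulated counts for this comparison, with 14830 genes, 193 of 196 changed genes were recovered and 14 of 14634 unchanged genes were called. Every simulated gene had the same spread between libraries and few were changed, whereas 54.5% of tested genes were called in the data. The simulated rates therefore need not hold for the data. Recovery of genes that differ as little as most members do was not tested. Totals per library ranged from 29648445 to 55574081 counts, and counts do not correct for molecules read more than once.

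The members and the gene lists were chosen with earlier results of these data known. Named with values in every library are the highest and lowest member of each role, members past 1 on the log2 scale, PCNA, MCM2, the genes of the 4 ratios and NUAK2, and, from the list of other replication genes, those past 1. Levels per kilobase used MANE Select transcript lengths of GENCODE v44, which also gave exon overlaps; coordinates are RefSeq GRCh38.p14, the same build as hg38. Alternatives were DESeq2 1.42.0, RLE and library-size scaling, a filter of 1 count in all or of 10 in each library, thinning to the smallest library, omission of every library singly, the replicate number as a block, other thresholds, a prior count of 2, ratios with a pseudocount of 1, and subtraction of the median of the 20 nearest tested genes. The study fitted DESeq2 with a cut-off of 2 on the log2 scale, given here as an alternative. Figures were drawn with Python 3.11.15 and matplotlib 3.10.9.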

Additional observations from a re-analysis of the deposited data

How the results depend on the processing

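Of the 31 members called, 27 kept their direction and their call under all 13 refits (DESeq2, RLE, library-size scaling, both filters, thinning, the replicate block and each of the 6 libraries left out); GINS1, POLD1, RRM2 and E2F2 lost it when 1 library was left out, and none changed sign. The share of all called genes that kept their call is not given here, so whether this stability is particular to the set was not tested. Of the 14 not called, 9 gained a call in at least 1 refit, FEN1 in 5. No called member beyond CCNE2 survived a larger fold: an absolute log2 fold change over 1 left 1 member higher and 0 lower, and one over 2 left 0 and 0. Leaving out 1 library moved the members called higher between 22 and 32 and those lower between 5 and 7, the median of the members between 0.23 and 0.38, the other replication genes higher between 20 and 31 and lower between 15 and 20, all genes called between 7190 and 8481, and NUAK2 between -1.02 and -0.80. The ratios ranged over these from 0.61 to 0.87 for CDT1 to GMNN, 0.43 to 0.46 for RRM2 to RRM1, 1.25 to 1.74 for CCNE2 to CCNE1 and -0.68 to -0.59 for E2F2 to E2F1. POLA2, at 0.03 and not called, ranged from -0.075 without WT replicate 2 to 0.13 without WT replicate 1; the cause was not tested. Where a group is left with 2 libraries, edgeR pools the spread over both groups.

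The replicate numbers of the labels did not pair the libraries: deviations from the group means correlated at 0.04, -0.04 and 0.05 for numbers 1, 2 and 3. With the replicate block 27 members were higher and 6 lower, with a median of 0.32, the other replication genes gave 24 and 20, all genes called were 8167 and NUAK2 had -0.92; CCNE1, at -0.35, and FEN1 gained a call, and no called member lost one.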
